A study of Mus musculus with 6 samples.

Results

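Gamma delta T cells making Il17a were selected in single-cell RNA sequencing of mouse pancreatic tumours as barcodes with at least 1 UMI of the T cell receptor signalling chains Cd3d, Cd3e and Cd3g. They also had to hold at least 2 UMIs in all of Trdc, Tcrg-C1 and Cd163l1, no UMI of Cd8a, Cd8b1, Foxp3 or Epcam, and at most 1 UMI of C1qa, C1qb and C1qc. A UMI is a molecular tag that counts 1 captured RNA molecule. The rule kept 159 cells of 39928 barcodes that passed limits on quality (500 UMIs and 250 genes or more, mitochondrial UMIs up to 20%), out of 44819 barcodes in all. They are called gate cells here, and Il17a was in their name but not in the rule. The values of Trdc, Tcrg-C1 and Cd163l1 chose the cells, and Il17a named them from these data, so the levels of those 4 genes in the gate are descriptions with no test between cell types.

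Gamma delta T cells carry an antigen receptor of a gamma and a delta chain in place of the alpha and beta chains of helper and CD8 T cells. A subset leaves the thymus already set to make interleukin-17A, a cytokine that draws neutrophils and acts on epithelium and fibroblasts. That subset answers the cytokines IL-23 and IL-1β, and in mice lives in barrier tissues and tumours, often with a receptor that pairs the gamma segment V6 with the delta segment V4. Cd163l1 encodes a scavenger receptor family member, SCART1, that marks this subset in mice.

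All 6 mice were KPC animals, which carry p53LSL.R172H/+ and Pdx1-Cretg/+ among their alleles, so that mutant p53 is made where the Pdx1 promoter drove Cre, a pancreatic lineage that does not include T cells. Treated mice (n = 3) received the MEK kinase inhibitor trametinib (1 mg/kg) and hydroxychloroquine (40 mg/kg), a lysosome-acting drug that blocks autophagy, both by mouth. Vehicle mice (n = 3) received corn oil and water. Tumours measured 4 to 7 mm at enrolment and were dissociated 24 h after treatment, and the labels give no age or sex. Each tumour gave 1 library.

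Libraries held 70523616 to 103825578 UMIs in Treated mice and 22996012 to 126645602 in Vehicle mice. The Treated 1 and Treated 2 libraries stood apart by their likeness. The SD of their log2 ratio over 11585 genes was 0.237, against 0.688 for the next closest of 15 pairs, although they shared 9 cell barcodes, within the 0 to 22 that pairs of libraries shared, and none of those was a gate cell. Gene counts and the tests of shares are also given with both summed as 1 sample. The Vehicle 1 library was the smallest, and its 6 gate cells entered no test across genes, which needed at least 10 cells per mouse. Of those 6 cells, 0 had a UMI of Trdv4 or Tcrg-V6, the delta V4 and gamma V6 segments, a count that allows a share of up to 50%. Its share of Gm42418 UMIs was also the lowest of all libraries, as given with that gene. Share tests are therefore given with and without Vehicle 1.

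Because Il17a named these cells, the sequences of its promoter and of the promoter of Il17f, its closest relative and neighbour on the same chromosome, are shown for the contrast in their UMIs given below. Il17a lies at chr1:20730905-20734496 on the plus strand and Il17f at chr1:20777146-20790617 on the minus strand (mm10, GENCODE M21). The letters are the 250 bases before the RefSeq start of each gene on GRCm38.p6, at chr1:20730655-20730904 on the plus strand and chr1:20784271-20784520 on the minus strand, and the Il17f stretch lies inside the longer GENCODE model of that gene. Capitals mark the letters AGGTCA, a core bound by several nuclear receptors, or their reverse complement TGACCT.
Il17a: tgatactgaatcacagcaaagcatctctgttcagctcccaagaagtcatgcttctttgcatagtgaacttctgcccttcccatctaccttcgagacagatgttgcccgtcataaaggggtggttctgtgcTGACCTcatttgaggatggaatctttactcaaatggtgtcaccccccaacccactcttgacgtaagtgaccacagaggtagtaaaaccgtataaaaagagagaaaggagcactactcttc
Il17f: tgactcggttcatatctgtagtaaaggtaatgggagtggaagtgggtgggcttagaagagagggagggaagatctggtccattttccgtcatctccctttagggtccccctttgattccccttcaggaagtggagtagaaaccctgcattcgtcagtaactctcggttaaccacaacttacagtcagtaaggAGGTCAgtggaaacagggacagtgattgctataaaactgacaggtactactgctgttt
Each promoter held 1 match, which began 120 bases before the start in Il17a and 58 bases before it in Il17f. The letters, searched on both strands, stood in 14% of all 32851 promoter stretches of that length. A match is a description of the letters and not evidence of binding.

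The gate cells also carried RNA of gamma delta receptor segments that the rule did not name. Such variable segments belong to the same chains as the constant regions Trdc and Tcrg-C1, which chose the cells. Their counts are thus a description and are not independent of the rule. Trdv4, the delta variable segment V4, had 110 UMIs in 60 gate cells, and Tcrg-V6, the gamma segment V6, had 29 UMIs. A UMI of either was found in 67 of 159 cells (42.1%, exact 95% binomial interval 34.4 to 50.2), and 16 cells had both. Tcrg-V4 and Tcrg-V1, the segments of other gamma delta subsets, had 4 UMIs each. Intervals and limits on single values here cover counting error only.

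The rule genes differed in how often they were caught. Trdc, the delta constant region, had a UMI in 145 gate cells, Tcrg-C1, a gamma constant region, in 94, and Cd163l1 in 98. All 3 were found in 57 cells. The cells were small libraries, with a median of 2075 UMIs and 992 genes and a range of 504 to 33483 UMIs. A gene missing from 1 cell is therefore not shown to be silent there.

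Values just inside and outside the threshold are given once. Among T cells with no Cd8, Foxp3 or Epcam UMI, 6.08% of the 592 cells with a sum of 0 over the rule genes had an Il17a UMI, 27.9% of the 43 cells with a sum of 1, and 42.4% of the 33 cells with a sum of 2. Trdv4 stood at 0, 39.6 and 200 CPM (UMIs scaled to the total of the summed cells) in the same order. Trac, the alpha constant region, stood at 240, 148 and 114 CPM. Cells just under the threshold thus lay between the gate cells and the remaining T cells in all 3 measures. Trdv4 belongs to the same chain as Trdc, so its rise with the sum is not independent of the rule.

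**Figure D1:**
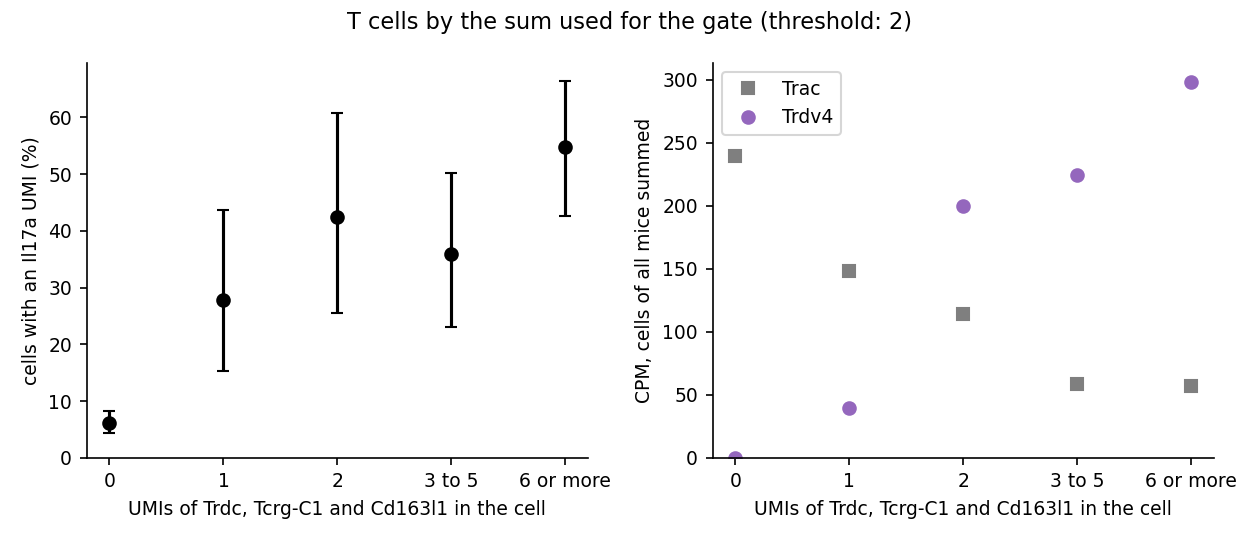
T cells grouped by the sum of Trdc, Tcrg-C1 and Cd163l1 UMIs, with the share of cells holding an Il17a UMI (left, %, bars exact 95% binomial intervals) and the CPM of Trac and Trdv4 over the summed cells (right). The share with Il17a was 6.08% at a sum of 0 and 42.4% at a sum of 2, where the gate begins.

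Il17a had 415 UMIs in 73 of the 159 gate cells (45.9%, interval 38.0 to 54.0), which was 49.5% of the 839 Il17a UMIs of the whole series. The 10 richest gate cells held 188 of those UMIs, and the richest cell held 27. The 143 cells of the helper T gate (Cd3 and Cd4 UMIs, no Cd8 or Foxp3 UMI, at most 1 UMI of the rule genes) held 128 Il17a UMIs in 10 cells, of which 87 lay in 1 cell of Treated 2. In the gates of other cell types, which exclude Cd3 UMIs, Il17a was near background, with 1 UMI in 7185 macrophages, 3 in 7473 epithelial cells and 0 in 3354 neutrophils.

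At a matched depth of 1000 UMIs per cell, 51 of 137 gate cells (37.2%) had an Il17a UMI, against 6 of 141 helper T cells (4.26%) and 0 of 90 CD8 T cells, a count that allows a share of up to 3.33%. Median depths before thinning were 2075, 2922 and 3371 UMIs, and 22, 2 and 5 shallower cells were left out. With cells of all mice pooled, Il17a was thus seen in a larger share of gate cells than of helper T or CD8 T cells. T cells outside these gates are not in this comparison. Vehicle 3 gave 61 of the 159 gate cells but 12 of the 143 helper T cells, and the shares were not compared within mice.

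The related cytokines did not follow Il17a into the gate. Il17f had 7 UMIs in the gate of 84 in the series, and Il22, a cytokine acting on epithelium, had 1 of 40. Among T cells outside the gate with a rule sum under 2 and an Il17a UMI, 51 cells held 247 Il17a, 32 Il17f and 19 Il22 UMIs, while the 73 gate cells with Il17a held 415, 6 and 0. Of the outside UMIs, 87 of Il17a and 15 of Il17f lay in 1 helper T cell of Treated 2. By cells, Il17f was in 10 of the 51 and 5 of the 73, and Il22 in 4 and 0. Those outside cells had Trac at 335 CPM and Cd4 at 91.8 CPM, against 56.5 CPM and 0 Cd4 UMIs in the gate cells with Il17a. No test was made, since the cells were picked by their Il17a.

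Gate cells were also described by whether Il17a was caught in them, with no test. Trdc, which the rule used, stood at 1651 CPM in the 73 cells with Il17a and 1577 CPM in the 86 cells without, among which was the deepest cell. Genes that the rule did not use were higher in the cells with Il17a. Trdv4 stood at 396 and 166 CPM, and Blk, a Src family kinase used by this subset, at 384 and 212 CPM. Il23r, the IL-23 receptor, stood at 119 and 45.8 CPM. Of the 67 cells with Trdv4 or Tcrg-V6, 40 had Il17a (59.7%, interval 47.0 to 71.5), against 33 of the 92 without (35.9%, interval 26.1 to 46.5). The median depth was 2316 UMIs in the cells with those segments and 1901 in those without, and the part depth plays was not tested.

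The gate was then compared with the helper T gate within mice, with counts summed per mouse and gate, in the 5 mice with at least 10 cells of each. Gate cells had more RNA of Blk, of the residency and homing receptors Cxcr6 and Ccr2, and of the membrane protein gene Tmem176a. They had less of the costimulatory genes Cd28 and Tnfrsf18, the adhesion gene Cd2, the kinase Lck and the alpha chain Trac. In edgeR's quasi-likelihood test with mouse as a block and Benjamini-Hochberg adjustment, 64 of 1240 genes differed at an adjusted p of at most 0.05 (5.16%), 45 higher in the gate (3.63%) and 19 lower (1.53%). The median log2 fold change over all tested genes was 0.02. Genes entered the test with enough UMIs in either gate. Those nearly absent from 1 of the gates could hardly be called except toward the gate that held them. Blk and Abi3bp were such genes on the side of the gate, and Cd28, Tnfrsf18, Cd2 and Lck on the side of helper T cells. Leaving out Treated 3 left 34 calls, of which 31 were among the 64, and summing Treated 1 and 2 as 1 sample gave 98, of which 62 were.

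A single cell weighed on the values of Treated 1. It held 33483 UMIs, 57.1% of that mouse's gate UMIs, with 260 UMIs of epithelial markers and none of Il17a. Without it Blk stood at 478 CPM in Treated 1 in place of 222, Cxcr6 at 796 in place of 358, Ramp1 at 1234 in place of 580 and Trac at 79.6 in place of 34.1. Each of these values of Treated 1 stayed on the same side of its own helper T value.

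Blk had 13, 22 and 33 UMIs in gate cells of Treated 1, 2 and 3 and 26 and 23 in those of Vehicle 2 and 3, and none in helper T cells of any of these mice. Against a floor of 3 counts over the helper T gate it was at least 62.1-fold higher in the gate. Blk met the filter on low counts through the gate alone and could only be called higher, so its values are a description. Trdv4 had 110 UMIs in the gate and none in the helper T gate, at least 58.3-fold higher, and met the filter in the same way. Tcrg-C4, a further gamma constant region, had 77 UMIs in the gate and 6 in the helper T gate, although gamma constant genes are near copies whose reads the counting may split.

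Abi3bp, which encodes an extracellular matrix binding protein, had 102 UMIs in the gate and 1 in the helper T gate, a ratio of 162 with a counting interval of 28.5 to 6473. Its UMIs were present in gate cells of all 5 mice, from 9 in Treated 1 to 46 in Vehicle 3. It was thus nearly absent from helper T cells, and its share of UMIs in the gate differed between mice.

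Cxcr6, the receptor for CXCL16 that marks tissue-resident T cells, stood at 358, 499 and 512 CPM in gate cells of Treated 1, 2 and 3 and at 701 and 368 CPM in those of Vehicle 2 and 3. Helper T cells of the same mice stood at 129, 41.4 and 82.5 CPM, and at 64.5 and 105 CPM. Every gate value lay above every helper T value, and the log2 fold change was 2.73 ± 0.36 (SE; adjusted p = 0.000801, edgeR). Ccr2, a receptor for monocyte-attracting chemokines, was higher by 2.47 ± 0.39 and Tmem176a by 2.41 ± 0.38.

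Ramp1, which with a partner forms the receptor for the neuropeptide CGRP, stood at 580, 822 and 558 CPM in gate cells of Treated 1, 2 and 3 and at 561 and 302 CPM in those of Vehicle 2 and 3. The helper T values were 348, 53.2 and 126 CPM in Treated mice and 110.5 and 158 CPM in Vehicle mice. The ranges overlapped across mice, but the gate was higher within each of the 5 mice (log2 fold change 2.14 ± 0.42, adjusted p = 0.0105, edgeR). Without Treated 3 its adjusted p was 0.0649.

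The remaining rises that the naming rule picked were Avpi1 (2.64), Slc16a6, a monocarboxylate transporter family member (2.60), BC018473 (2.33) and Selenop, a selenium transport protein (2.21), all as log2 fold changes past the test.

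**Figure D2:**
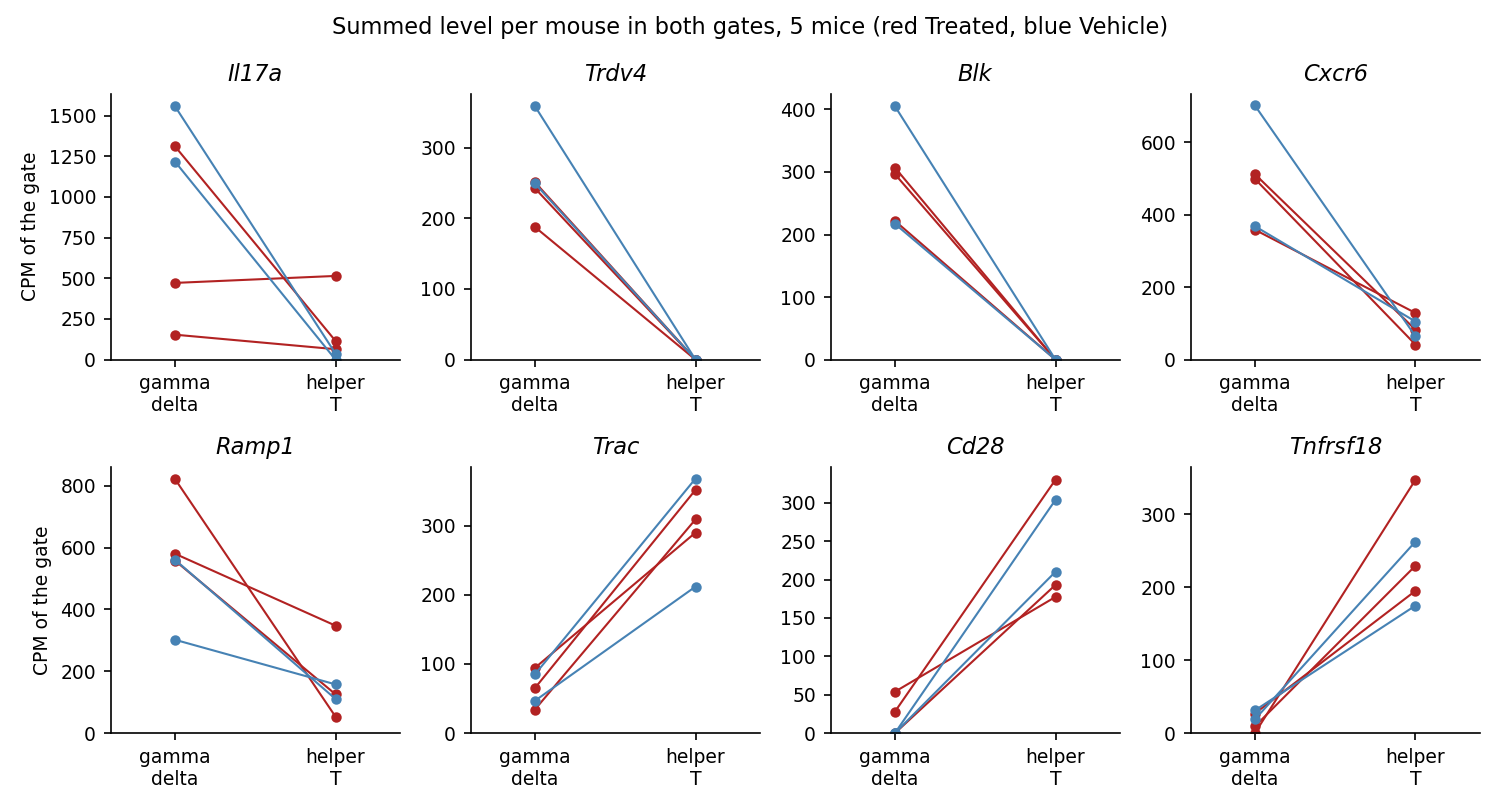
Summed level (CPM of the gate) of 8 genes in gate cells (left of each panel) and helper T cells (right) of 5 mice, each line 1 mouse, red Treated and blue Vehicle. Trdv4 and Blk are at 0 in every helper T sum, Cd28 and Tnfrsf18 are lower in the gate in every mouse, and Il17a of Treated 2 is as high in the helper T gate, where 1 cell held 87 UMIs.

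Lower in the gate, Tnfrsf18, the costimulatory receptor GITR, stood at 0, 27.0 and 9.30 CPM in gate cells of Treated 1, 2 and 3 and at 31.2 and 18.9 CPM in those of Vehicle 2 and 3. Helper T cells stood at 348, 195 and 230 CPM in Treated mice and at 175 and 263 CPM in Vehicle mice. The sets of values did not overlap (log2 fold change -3.66 ± 0.47). With 7 UMIs in the gate and 148 in the helper T gate, Tnfrsf18 met the filter on low counts through the helper T gate and could hardly be called higher. Cd28, which gives T cells their main costimulatory signal, had 7 UMIs in the gate and 174 in the helper T gate (-3.66 ± 0.60), with the same limit.

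Lck, the kinase that starts signalling from the alpha beta receptor with its coreceptors, had 13 UMIs in the gate and 134 in the helper T gate (log2 fold change -2.85 ± 0.56). Lck, and Cd2 with 9 and 110 UMIs, could likewise hardly be called higher in the gate. Cd2, Fyb, an adaptor of adhesion and receptor signalling, and the membrane genes Ms4a4b and Ms4a6b were lower by -3.17, -2.83, -3.23 and -2.75 on the log2 scale. Ifi27l2a, an interferon-induced gene, was lower by -3.11, Tent5a by -2.39 and Itga4, the integrin alpha 4 chain, by -2.15. Calls of Ms4a4b were lost without Treated 2 or Vehicle 2, and that of Fyb without Vehicle 3.

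The alpha beta receptor genes split. Trac had 34.1, 94.3 and 65.1 CPM in gate cells of Treated 1, 2 and 3 and 46.7 and 85.0 CPM in those of Vehicle 2 and 3, against 309, 290 and 352 CPM and 212 and 368 CPM in the helper T cells. All gate values lay below all helper T values. Trbc1 and Trbc2, the beta constant regions, stood at 451 and 619 CPM in the gate and 464 and 677 CPM in the helper T gate, and neither passed the test. Their ratios of CPM had counting intervals of 0.805 to 1.17 and 0.781 to 1.07. Gate cells thus held beta constant RNA at levels that overlapped those of helper T cells, while their alpha constant RNA was lower. Epithelial cells with no Cd3 UMI also held Trbc1 and Trbc2, at 261 and 91.3 CPM in Vehicle 3. The part of such RNA in the gate values was not tested.

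Maf, a transcription factor of this subset also used by helper T cells, had 172 UMIs in the gate and 287 in the helper T gate and did not pass (0.28 ± 0.36).

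Several defining genes had too few UMIs for the filter on low counts. Il23r had 32 UMIs in the gate and 9 in the helper T gate, a ratio of CPM of 5.66 with a counting interval of 2.64 to 13.5, and Il1r1, the IL-1 receptor, had 49 and 10 (ratio 7.80, interval 3.90 to 17.3). Sox13, a transcription factor of gamma delta lineage cells, had 20 and 2 (ratio 15.9, interval 3.87 to 140). Ccr6, a homing receptor of IL-17 producers, had 14 UMIs in the gate and 30 in the helper T gate, with an interval that spans 1 (0.364 to 1.44). These intervals treat the UMIs of all mice as 1 pool and do not carry the spread between mice.

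Further lists of T cell genes were set against helper T cells, where 3.63% of all tested genes were higher in the gate and 1.53% lower, with a median of 0.02. Of 19 activation and residency genes, 10 were tested, 2 were higher in the gate (Nr4a2, an orphan nuclear receptor induced by receptor signals, by 1.65 and Vps37b by 1.43) and Odc1, the enzyme that starts polyamine synthesis, was lower (-1.45), with a list median of 0.78. Of 8 checkpoint receptor genes 2 were tested, with a list median of 0.21. Pdcd1, which encodes PD-1, was higher in the gate by 1.56, while Ctla4 went the other way and did not pass (-1.145 ± 0.462). Pdcd1 had 8, 10 and 14 UMIs in gate cells of Treated 1, 2 and 3 and 0, 21 and 16 in those of Vehicle 1, 2 and 3. Of 23 genes driven by the kinase ERK, 7 were tested and the AP-1 genes Fosl2 and Junb were higher (median 0.91).

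Against the CD8 T gate (Cd3 and Cd8 UMIs, no Cd4 or Foxp3 UMI, at most 1 UMI of the rule genes), tested in Treated 1 to 3 and Vehicle 2, gate cells had less of the killer genes Gzma and Nkg7 and more of the AP-1 factors Jun, Fos and Junb. In edgeR's test 111 of 1147 genes differed (9.68%), 57 higher in the gate (4.97%) and 54 lower (4.71%). Of the genes called, 36 encode ribosomal proteins, whose median over 80 tested was -0.57 on the log2 scale. Without Treated 2 there were 55 calls, without Treated 3 there were 39, and with Treated 1 and 2 summed there were 95. Both comparisons share the gate cells, so their values stand side by side and are not independent of each other.

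Gzma, a killer cell protease, had 0 UMIs in the gate and 101 in the CD8 T gate, at least 25.2-fold lower in the gate. Nkg7, a cytotoxic granule protein, stood at 0, 0 and 149 CPM in gate cells of Treated 1, 2 and 3 and at 0 in those of Vehicle 2. CD8 T cells stood at 1214, 654 and 591 CPM in Treated mice and at 509 CPM in Vehicle 2. All Nkg7 UMIs of the gate in these mice came from Treated 3. Its log2 fold change was -4.30 ± 0.82, and its call was lost without Treated 1, Treated 2 or Vehicle 2, and with Treated 1 and 2 summed.

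Of the 19 type-1 and killer genes, 6 passed the filter, and 3 were lower in the gate (Gzma, Nkg7 and Cd27, a costimulatory receptor) and 0 higher, where 4.71% of all tested genes were lower and 4.97% higher. Those 3 had 0, 16 and 5 UMIs in the gate against 101, 307 and 58 in the CD8 T gate. They met the filter through the CD8 T gate and could hardly be called higher, so the count is a description. Ifng, the type-1 cytokine, had 0 UMIs in all 159 gate cells. Ms4a4b and Ms4a6b were again lower (-4.35 and -3.15), as were Cd28 (-3.13), Gramd3 (-3.73) and Plac8 (-2.22, a call lost without Treated 2). Cd28 and Gramd3 had 7 and 5 UMIs in the gate against 78 and 81 in the CD8 T gate, and could hardly be called higher. Itga4 (-2.30), Fyb (-2.28) and Prkcq, a kinase of T cell receptor signalling (-1.90), passed in all 4 mice together, but each lost its call when Treated 1, Treated 2 or Vehicle 2 was left out.

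Higher in the gate than in CD8 T cells, Jun stood at 3243, 1024 and 409 CPM in gate cells of Treated 1, 2 and 3 and at 1449 CPM in those of Vehicle 2. CD8 T cells stood at 162, 50.3 and 131 CPM in Treated mice and at 76.8 CPM in Vehicle 2. The deepest gate cells of Treated 1 and Treated 2 held most of the Jun UMIs of their mice, and without them Treated 1 stood at 319 CPM and Treated 2 at 175 CPM. The gate values ranged widely, but all lay above all CD8 T values, also without those cells. In the fit with all cells the log2 fold change was 3.48 ± 0.49 (adjusted p = 0.00486, edgeR). No fit left out only those cells, and without them the contrast in Treated 1 and Treated 2 was much smaller. S100a4, a calcium-binding protein of motile cells, stood at 1160 (1951 without the deepest cell), 1860 and 1116 CPM in gate cells of Treated mice and at 2399 CPM in Vehicle 2, against 462, 75.5 and 158 CPM and 298 CPM in CD8 T cells.

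Samd11 (4.50), Serpinb1a, a protease inhibitor of IL-17 producers (3.19), Tmem176a (3.00), Podnl1 (2.99), Krt83 (2.89) and the brain-type creatine kinase Ckb (2.78) were also among the largest rises over CD8 T cells on the log2 scale. Podnl1 and Krt83 rested on few UMIs, 47 and 66 in the gate, and Podnl1 lost its call when Treated 1, Treated 2 or Vehicle 2 was left out, as Krt83 did without Vehicle 2. Blk had 94 UMIs in the gate and 1 in the CD8 T gate, Abi3bp had 56 and 2, and Samd11 had 128 and 6. These genes could hardly be called lower in the gate, so their values are a description.

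The gate was not free of other RNA. Killer genes reached 5 or more UMIs in 11 gate cells, 6 of them in Treated 3, and 2 of those 11 had Il17a. Of 6 markers of NK cells, 4 were at 0 in the gate, while Klrb1c had 14 UMIs and Ncr1 had 6. Of 10 type-2 genes, 7 were at 0. At least 10 UMIs of markers of another cell type stood in 11 gate cells, 7 of them in Vehicle 3, and these cells held 19 of the 415 Il17a UMIs. Without them Treated 1 had 9 gate cells and no longer entered the fits, in which 81 genes differed from helper T cells and 136 from CD8 T cells.

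The effect of treatment on these cells was asked next. Gate cells numbered 10, 18 and 35 in Treated 1, 2 and 3 and 6, 29 and 61 in Vehicle 1, 2 and 3. Of all barcodes kept, they were 0.243%, 0.333% and 0.548% in Treated 1, 2 and 3, against 0.274%, 0.278% and 0.534% in Vehicle 1, 2 and 3. The means were 0.375% ± 0.157 and 0.362% ± 0.149 (SD, n = 3 each), which differed by less than the spread between mice (two-sided exact permutation test, p = 0.9; the smallest p that 3 against 3 allows is 0.1). The difference was 0.0587 points with Treated 1 and 2 summed (exact permutation p = 0.5) and -0.0317 points without Vehicle 1 (p = 0.8).

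Of T cells, gate cells were 9.62%, 15.9% and 10.5% in Treated 1, 2 and 3, against 11.5%, 12.8% and 27.4% in Vehicle 1, 2 and 3. Vehicle 3 stood far above the others. The means were 12.0% ± 3.41 and 17.2% ± 8.80 (SD, n = 3 each; exact permutation p = 0.5), and the difference of -5.19 percentage points was -0.128 without Vehicle 3, -8.04 without Vehicle 1 (exact permutation p = 0.3) and -5.50 with Treated 1 and 2 summed (p = 0.7). With every cell thinned to 1000 UMIs before gating, it was -8.80 points with no overlap between the groups (exact permutation p = 0.1, the smallest possible), and -9.37 points with Treated 1 and 2 summed as well (p = 0.2). Vehicle 1 then rested on 4 gate cells of 24 T cells. Gate cells had medians of 2822, 2989 and 3077 UMIs in the Treated group, against 1270, 1850 and 1296 in the Vehicle group, so depth ran with treatment.

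**Figure D3:**
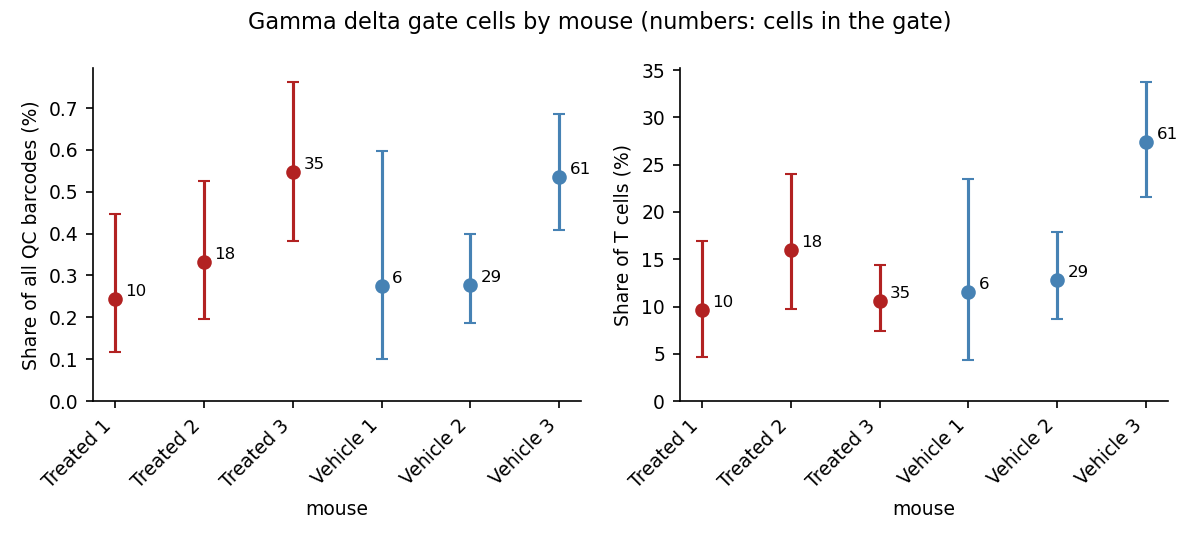
Gate cells as a share of all barcodes kept (left, %) and of T cells (right, %) in each mouse, with exact 95% binomial intervals and the number of gate cells beside each point, red Treated and blue Vehicle. Treated and Vehicle mice overlap in both panels, and Vehicle 3, at 27.4% of T cells, stands above the other 5 mice.

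Il17a was in 40.0%, 38.9% and 42.9% of gate cells in Treated 1, 2 and 3, against 34.5% and 59.0% in Vehicle 2 and 3 and 1 of 6 cells in Vehicle 1. Because depth differed between the groups, cells were also thinned to 1000 UMIs, and shallower cells were left out. Il17a was then in 2 of 10, 4 of 18 (22.2%) and 11 of 34 cells (32.4%) in Treated 1, 2 and 3. In Vehicle 2 and 3 it was in 10 of 28 (35.7%) and 25 of 43 cells (58.1%), and Vehicle 3 had 61 gate cells before. The thinned values did not overlap, with a difference of -22.1 percentage points and p = 0.1 by the two-sided exact permutation test, the smallest that 3 against 2 allows. These values came from 1 random draw. The shares expected over all draws were 24.1%, 25.7% and 32.1% in Treated 1, 2 and 3 and 33.1% and 54.6% in Vehicle 2 and 3. Treated 3 and Vehicle 2 thus lay close together. At 500 UMIs, which kept all gate cells of these mice, Il17a was in 1 of 10, 3 of 18 (16.7%) and 8 of 35 (22.9%) in Treated 1, 2 and 3, against 27.6% and 39.3% in Vehicle 2 and 3, again without overlap (-16.96 points, p = 0.1 by the same exact test).

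The separation was not seen at every depth. Unthinned the difference was -6.17 points (exact permutation p = 0.7), and at 2000 UMIs, which left 10 and 12 cells in Vehicle 2 and 3, it was -3.49 points (p = 0.8). With Treated 1 and 2 summed it was -20.04 points at 1000 UMIs (exact permutation p = 0.333, the smallest that 2 against 2 allows), and with Vehicle 1 included it was -6.43 points (p = 0.7). In CPM, Il17a stood at 154, 472 and 1312 in Treated mice and at 146, 1558 and 1218 in Vehicle 1, 2 and 3. Without the deepest cell the value of Treated 1 was 358 CPM.

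**Figure D4:**
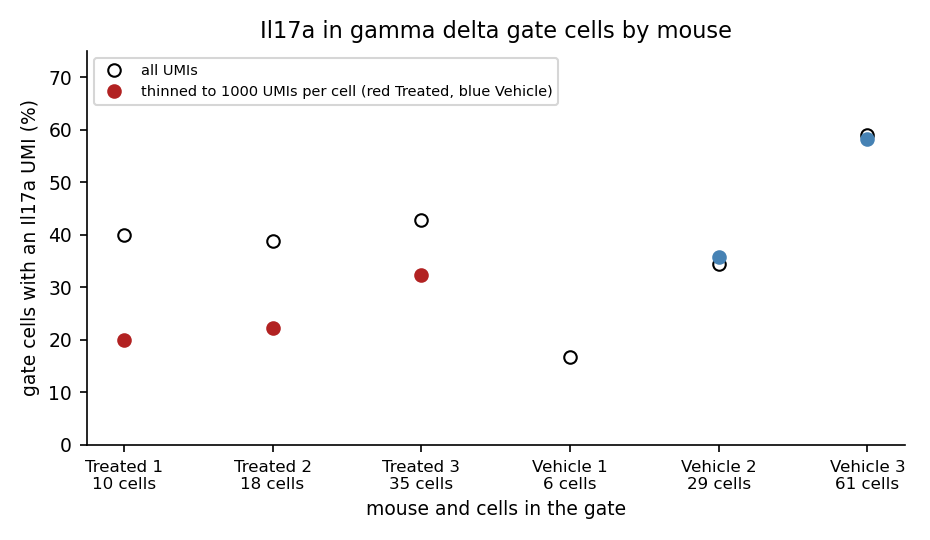
Share of gate cells with an Il17a UMI in each mouse (%), with all UMIs (open) and thinned to 1000 UMIs per cell (filled, red Treated and blue Vehicle; not computed for Vehicle 1). Thinned values are at most 32.4% in Treated mice and 35.7% and 58.1% in Vehicle 2 and 3, where 43 of 61 cells of Vehicle 3 were kept. At 500 UMIs, which kept all of their cells, the Vehicle values fell as well, to 27.6% and 39.3%.

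Across genes, treatment gave 1 call among 1272 tested in gate cells (0.0786%) in edgeR's test of 3 Treated against 2 Vehicle mice, with 41 genes at an unadjusted p under 0.05. The groups did not overlap for 257 genes (20.2%). The gene called was Gm42418, named outside the naming rule and after its values were seen. It is a predicted gene at chr17:39846958-39848788 that overlaps ribosomal RNA sequence. DESeq2 called it and AY036118, which also lies in ribosomal RNA sequence. The count was 4 without Treated 2, 8 without Treated 3, 24 without Vehicle 2 and 4 without Vehicle 3. With either Vehicle mouse left out the Vehicle group was 1 mouse, so the spread came from the Treated mice alone and the lone mouse was assumed to vary like them. Summing Treated 1 and 2 gave 6.

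Gm42418 took 7.75%, 14.4% and 11.6% of the UMIs of gate cells in Treated mice and 2.29% and 3.11% in Vehicle 2 and 3 (Treated 1 at 13.8% without its deepest cell; log2 fold change 2.24 ± 0.33, adjusted p = 0.00526, edgeR). In all barcodes kept it took 3.02% to 4.35% in Treated mice and 0.0255% to 0.641% in Vehicle mice, and in macrophages 4.17% to 5.83% and 0.0382% to 1.95%. Vehicle 1 gave both of the lowest values, and without it the Vehicle ranges began at 0.437% and 0.811%. A difference in the same direction was thus present in cells of other types, and its source was not tested.

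Cxcr6 (-0.02 ± 0.43), Tmem176a (-0.15 ± 0.38) and Blk (0.04 ± 0.44) did not pass the test of treatment. Blk stood at 222, 297 and 307 CPM in the Treated group, against 293, 405 and 217 CPM in the Vehicle group. Genes driven by the ERK kinase, the target of MEK, gave 0 calls by both tools among 7 of 23, 1 of them at an unadjusted p under 0.05, with a median of -0.23. Of the 7, 6 lay below 0 and 1 above. Junb and Fos, the 2 most abundant, had -0.23 ± 0.33 and 0.708 ± 0.485. Dusp5, a phosphatase induced by ERK and the 1 gene at an unadjusted p under 0.05, had -1.03 ± 0.46.

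Of 25 autophagy and lysosome genes, 9 were tested and 0 were called by either tool, 0 at an unadjusted p under 0.05 (median 0.17), and Ctsd, a lysosomal protease, had 0.17 ± 0.45. Of 20 cell division genes, 3 were tested with 0 calls by either tool and 1 at an unadjusted p under 0.05, Tubb5 at -1.28 ± 0.50 and Hmgb2 at -0.97 ± 0.46. The median SE over all tested genes was 0.51 on the log2 scale, which limits what 3 against 2 mice could show. Markers of other cell types differed as well. Fibroblast markers summed to 17.1, 40.4 and 205 CPM in gate cells of Treated 1, 2 and 3, against 293, 623 and 2133 CPM in Vehicle 1, 2 and 3. In Vehicle 3 1 cell held 212 of the 226 fibroblast UMIs, and without it that mouse stood at 141 CPM, within the range of the Treated mice, while the value of Vehicle 1 rested on 2 UMIs. Epithelial markers reached 4471 CPM in Treated 1, whose deepest gate cell held 260 epithelial UMIs. Their part in these values was not tested.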

How the data were processed

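Single-cell suspensions of 6 tumours, 1 per mouse, were profiled with 10x Genomics droplets, per the labels. The deposited matrices hold raw UMI counts of 32285 features. Per the submitters' processing notes, Cell Ranger 5.0.1 and mm10 were used, with an annotation not given in the sources used here. No column of another series was present (0). Barcodes were kept as stated in the report. Scrublet's own threshold marked 0% to 0.751% of a library, too few to rely on, so doublets were kept in the main analysis and the highest scores (0.8% per 1000 barcodes) were left out as an alternative. Gates used raw counts of the named genes. Counts were summed per mouse and gate over mice with at least 10 cells and tested in edgeR 4.0.16 (R 4.3.3; TMM scaling, filterByExpr, robust quasi-likelihood fit, two-sided, Benjamini-Hochberg adjustment at 0.05 over all genes tested), with mouse as a block between gates. Genes used by a gate, and Il17a, were left out of the tests between gates. DESeq2 1.42.0 was an alternative. The edgeR steps were tested on simulated data. Shares were compared by exact permutation over mice, and cells were thinned at random to 1000 UMIs. Folds against a gate at 0 used a floor of 3 counts over the group, and single shares have exact 95% binomial intervals. Replicate numbers name different mice. Deviations of same-numbered mice correlated at -0.14, -0.05 and -0.10, so the numbers did not pair them. The members and the 24 gene lists were chosen with earlier results of these data known. Genes were named by rule. It takes a fixed set of genes, and per comparison the 10 largest rises and falls among called genes that moved by 1 or more on the log2 scale, averaged 5 or more in log2 CPM and went the same way in every mouse (no overlap for treatment). Receptor, ribosomal, mitochondrial, predicted and sex-linked genes and other cells' markers are passed over. From each list named, at most 4 called members are added, or the 2 most abundant. Some listed genes and alleles are not reported here. Versions were Python 3.11.15, numpy 2.4.6, scipy 1.17.1, pandas 2.3.3, scanpy 1.11.5 and matplotlib 3.10.9.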

Additional observations from a re-analysis of the deposited data

How the results depend on the processing

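The number of genes called for treatment was 1, and it was 2 with DESeq2, 6 with Treated 1 and 2 summed as 1 sample, 27 with a minimum of 20 cells per mouse, 0 with a minimum of 5, 11 without the highest Scrublet scores, 2 without cells holding 10 or more UMIs of another cell type and 35 with no filter on low counts. A replicate block by number gave 14, although the numbers did not pair the mice. Leaving out 1 mouse gave 1 to 24. The cause was not tested. Gm42418 was among the calls in each of these fits except that with a minimum of 5 cells. Against helper T cells the 64 calls became 98 with Treated 1 and 2 summed, 14 with a minimum of 20 cells, 137 with no filter and 41 with no replicate block (mouse left out of the model), and 34 to 76 without 1 mouse. Against CD8 T cells the 111 calls became 1 with a minimum of 20 cells, 64 without cells holding Ncr1 or Klrb1c, 175 without the highest Scrublet scores, and 39 to 100 without 1 mouse. A minimum of 20 cells left 1 Treated and 2 Vehicle mice for treatment and 2 mice for each comparison of gates, and the fits for treatment without the highest Scrublet scores and without cells of mixed markers no longer held Treated 1. The 20 genes named against helper T cells kept direction and call in 303 of 325 refits and the 20 named against CD8 T cells in 235 of 288. The others kept direction and lost the call. These genes were named for a call with the same direction in every mouse, and the refits share most of the cells. Their kept direction was therefore largely set by the naming. The difference in the share of all barcodes, 0.0123 points, turned to -0.0225 with cells thinned to 1000 UMIs, -0.0076 without the highest Scrublet scores and -0.0606 without cells holding Ncr1 or Klrb1c, and -0.0045 when thinned with Treated 1 and 2 summed. It was 0.0545 with a rule sum of 3 or more, 0.0527 with a Trdc UMI required, 0.0294 with mitochondrial UMIs at most 10%, 0.0155 without cells of mixed markers and 0.0587 with Treated 1 and 2 summed, and it ranged from -0.0744 to 0.0982 without 1 mouse. The difference among T cells ranged from -8.04 to -0.128 points without 1 mouse, and that in Il17a at 1000 UMIs from -33.3 to -10.9. With the replicate block, both share differences had an exact sign-flip p of 0.75. Summing Treated 1 and 2 in the share tests was chosen after seeing the data, as was leaving out cells of mixed markers.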

Other observations

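Cells of the epithelial gate, which was defined to hold no Cd3 UMI, held T cell receptor RNA. Trbc1, a beta constant region, stood at 2.65, 0.379 and 1.30 CPM of epithelial UMIs in Treated 1, 2 and 3, against 1.53, 28.2 and 261 in Vehicle 1, 2 and 3. Trbc2, the other beta constant region, stood at 75.8, 80.5 and 5.22 CPM in Treated 1, 2 and 3, against 6.55, 10.2 and 91.3 in Vehicle 1, 2 and 3. Trdv4 had 0, 1 and 0 UMIs there in Treated 1, 2 and 3, against 0, 38 and 29 in Vehicle 1, 2 and 3, or 0.607 and 0.366 CPM in Vehicle 2 and 3. Trbc1 was thus highest in Vehicle 2 and 3, while Trbc2 was high in libraries of both groups. The source of this RNA was not tested.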
